A study of Mus musculus with 16 samples.

Results

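Marker genes of the somatic cells that surround germ cells in the mouse testis were examined in the chromatin of sorted haploid spermatids. The 10 genes were taken by name from the known markers of Sertoli cells (Sox9, Amh, Wt1, Gata4, Clu), Leydig cells (Insl3, Star, Cyp11a1, Cyp17a1), and peritubular myoid cells (Acta2), out of 21938 protein-coding genes that GENCODE vM21 places on the 19 autosomes, X, and Y of mm10. The question was whether H3K4me3 or H3K27me3 marks these genes in a cell preparation that should hold no Sertoli, Leydig, or myoid cells.

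Sertoli cells nurse the germ cells inside the seminiferous tubule, Leydig cells between the tubules make androgens from cholesterol, and the flat myoid cells contract around the tubule wall. H3K4me3 typically lies over the starts of active genes, and H3K27me3 is deposited by Polycomb repressive complexes over silent developmental genes, often across several kb. H3K9me3 is typical of constitutive heterochromatin. Germ cells keep many developmental regulators under H3K27me3 through meiosis and into sperm formation.

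Haploid spermatids were sorted live by DNA content, after staining with Hoechst and propidium iodide, from non-mated 2-month-old males. Each of 2 sibling pairs gave 1 wild-type (WT) male and 1 male of the H2A.B knockout (KO) line, a single CRISPR/Cas9 strain with disruptive deletions in all 3 X-linked genes for the short histone variant H2A.B (H2afb1, H2afb2, H2afb3), made in B6;SJLF1/J zygotes and backcrossed to C57BL/6J. AutoCUT&RUN, in which an antibody tethers a nuclease that cuts out the DNA around its target, was run for H3K4me3, H3K27me3, H3K9me3, and IgG as the background control. The 16 libraries form 8 groups of 2, namely H3K4me3 KO, H3K4me3 WT, H3K27me3 KO, H3K27me3 WT, H3K9me3 KO, H3K9me3 WT, IgG KO, and IgG WT.

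The libraries held between 159611 and 6746382 fragments with distinct coordinates. H3K4me3 libraries held 784360 to 3394830, H3K27me3 libraries 200457 to 3806026, H3K9me3 libraries 5009169 to 6746382, and IgG libraries 159611 to 270598. The IgG libraries together held only 791157 fragments, so a window with 0 IgG fragments is limited to 3.79 fragments per 1000000 (CPM, from 3 fragments over the 4 libraries), which is above the genome average of 0.734 CPM for a window of 1 kb on each side of a start. Intervals and such limits cover counting error only. Between 0 and 4 fragments per library lay on any of the 3 H2A.B genes, too few to check the genotypes.

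In the results that follow, a level is the number of distinct fragments with their midpoint within 1 kb of the annotated gene start, per 1000000 distinct fragments of the library (CPM). A gene was called where the adjusted p of a quasi-Poisson fit with limma's moderated dispersion, adjusted by the Benjamini-Hochberg method over all genes tested, was under 0.05. Genes needed 10 fragments over the libraries of a comparison to be tested.

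The labelled cell type was first checked against its own genes. Of 17 spermatid genes, 16 were called for H3K4me3 over IgG, with a median level of 23.6 CPM against 3.11 over all protein-coding genes. Ldhc, the sperm lactate dehydrogenase, reached 35.7 CPM and Tssk1, a testis-specific kinase, 34.4. The spermatid gene not called was Prm1, with 1.43 CPM, below the 1.82 of the somatic cell gene Amh. Of 10 spermatogonial genes, 3 were called for H3K4me3 and 7 for H3K27me3. Of 11 ubiquitous genes, 9 were called for H3K4me3. Gapdh (0.908 CPM) and Eef1a1 (0.389 CPM) had too few fragments to test, and Eef1a1 was called for H3K27me3 (8.28 CPM). A low H3K4me3 level at the annotated start was thus also found in these lists. Over gene bodies both Prm1 and Eef1a1 were called for H3K4me3 over IgG, as were 44.3% of all genes tested. Their low H3K4me3 levels are those of the start window only. Over all protein-coding genes, 44.0% were called for H3K4me3 and 22.5% for H3K27me3, and of those tested 74.9% and 73.5%. The spermatid genes passed the filter through H3K4me3, so their count of calls is no support on its own.

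The somatic cell genes had almost no H3K4me3 at their starts, and most had H3K27me3. The median H3K4me3 level over the 10 genes was 0.259 CPM, below the genome average, and 8 of the 10 lay below it, while 63.5% of all protein-coding genes lay above it. The median H3K27me3 level was 12.7 CPM against 0.263 over all protein-coding genes, and 7 of the 10 genes lay above the genome average, as did 34.1% of all protein-coding genes. Those 7 were Sox9, Wt1, Gata4, Clu, Insl3, Cyp11a1, and Acta2. Cyp17a1 and Star lay below the genome average in both marks, and Amh lay below it in H3K27me3 and 2.47-fold above it in H3K4me3. Since these are bulk libraries, a mark on few cells and a weak mark on all cells cannot be told apart.

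The starts of the 7 genes with H3K27me3 differ in their base composition. Of the 10 genes, Sox9 and Wt1 have CpG-rich starts (an observed-to-expected CpG ratio of at least 0.6 and a GC content of at least 50% within 500 bp), a class that holds 44.4% of all protein-coding genes. RefSeq promoter sequences of GRCm38.p6 (250 bases before to 50 after the start) were found for 3 of the 10 genes, Insl3, Cyp11a1, and Acta2. They are shown because they are promoters of 3 genes called for H3K27me3, with more CG in Insl3 than in Acta2 or Cyp11a1. Capitals mark each CG. Insl3 lies at chr8:71689002-71689301 on the + strand, Acta2 at chr19:34255324-34255623 on the - strand, and the Cyp11a1 promoter at chr9:57997774-57998073 on the + strand.
Insl3: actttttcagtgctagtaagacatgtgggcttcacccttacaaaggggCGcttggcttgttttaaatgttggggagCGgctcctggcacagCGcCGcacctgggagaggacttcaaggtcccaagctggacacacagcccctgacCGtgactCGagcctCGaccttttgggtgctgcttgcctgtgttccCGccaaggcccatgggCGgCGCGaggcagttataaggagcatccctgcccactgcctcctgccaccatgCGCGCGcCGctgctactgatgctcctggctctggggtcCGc
Acta2: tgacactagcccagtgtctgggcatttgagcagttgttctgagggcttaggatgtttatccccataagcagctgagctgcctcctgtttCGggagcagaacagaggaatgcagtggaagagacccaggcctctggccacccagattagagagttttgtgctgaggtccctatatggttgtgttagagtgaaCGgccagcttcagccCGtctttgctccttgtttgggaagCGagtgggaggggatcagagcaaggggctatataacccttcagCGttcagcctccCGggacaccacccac
Cyp11a1: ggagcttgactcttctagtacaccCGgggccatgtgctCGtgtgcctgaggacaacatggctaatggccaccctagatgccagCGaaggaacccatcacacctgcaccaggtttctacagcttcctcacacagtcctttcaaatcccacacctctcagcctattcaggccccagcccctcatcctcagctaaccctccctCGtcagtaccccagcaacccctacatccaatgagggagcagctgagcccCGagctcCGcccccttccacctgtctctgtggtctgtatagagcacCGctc
The Insl3 promoter holds 16 CG, more than 67.0% of the 32851 promoters in the table, whose median is 7. Acta2 holds 6 and this Cyp11a1 promoter 7. The RefSeq starts of Insl3 and Acta2 lie 38 and 217 bp from the GENCODE starts used for counting. The start behind the printed Cyp11a1 sequence lies 8387 bp upstream of the GENCODE start, and a further RefSeq start of Cyp11a1 lies 8541 bp downstream of it with 1 CG in its promoter.

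**Figure D1:**
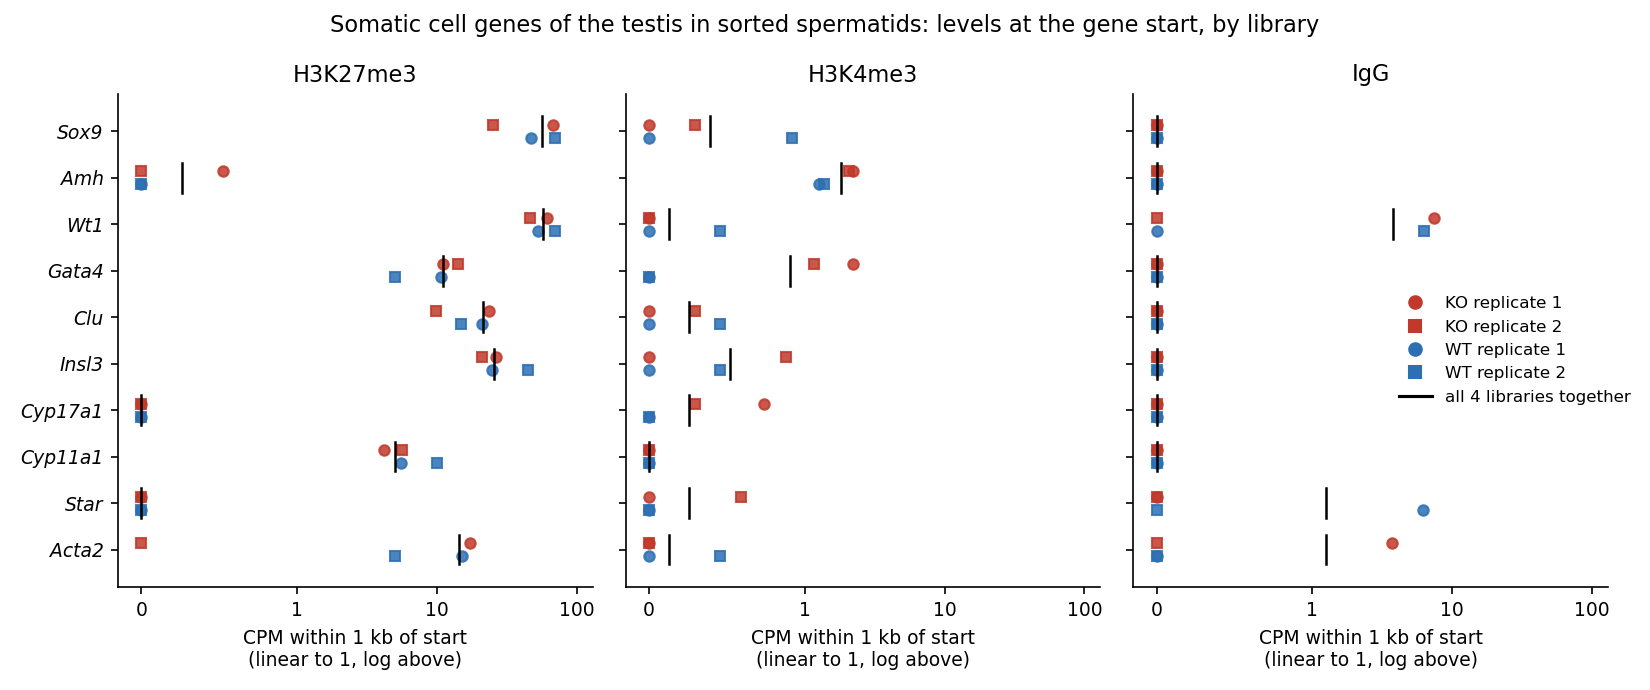
Each point is 1 library, with the CPM within 1 kb of the gene start on the horizontal axis (linear to 1, logarithmic above) and the 10 somatic cell genes on the vertical axis, for H3K27me3, H3K4me3, and IgG. Colours give the genotype, shapes the replicate, and black bars the 4 libraries together; the H3K27me3 points of Sox9 and Wt1 lie between 25.3 and 69.8 CPM in every library, whereas no H3K4me3 bar passes 1.82.

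Sox9, the transcription factor that specifies Sertoli cells, lies on the + strand of chromosome 11 from 112782224 to 112787760. Within 1 kb of its start there were 257 and 18 H3K27me3 fragments in the KO libraries of replicates 1 and 2 and 136 and 14 in the WT libraries. These are levels of 67.5, 25.3, 47.0, and 69.8 CPM, so the replicates of each genotype spread more widely than the genotypes differ. H3K4me3 gave 0, 1, 0, and 2 fragments in the same order, and IgG gave 0 in all 4 libraries. Over the 4 libraries the H3K27me3 level was 55.8 CPM (95% exact Poisson interval 50.7 to 61.4), higher than at 98.6% of protein-coding genes. This level was at least 11.9-fold above IgG (lower limit of the exact interval, adjusted p = 0.000301). A noncoding transcript on the opposite strand, BC006965, starts 248 bp away, and the window counts cannot separate the 2 starts.

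Wt1, a zinc finger transcription factor needed to keep Sertoli cell identity, lies on the + strand of chromosome 2 from 105126529 to 105173616. H3K27me3 gave 233 and 33 fragments in KO and 153 and 14 in WT, or 61.2, 46.4, 52.9, and 69.8 CPM. H3K4me3 gave 1 fragment in all, in WT replicate 2. Among the somatic cell genes, Wt1 had the most IgG fragments at its start, 2 in KO replicate 1 and 1 in WT replicate 2. Its H3K27me3 level of 56.9 CPM thus stood 15.0-fold over IgG (exact interval 5.10 to 73.0, adjusted p = 0.000766). The antisense gene Wt1os starts 19 bp away and shares the window.

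Gata4, a zinc finger factor of Sertoli and Leydig cells, lies on the - strand of chromosome 14 from 63198922 to 63271692. Its annotated start carried 42 and 10 H3K27me3 fragments in KO and 31 and 1 in WT, which are 11.04, 14.0, 10.7, and 4.99 CPM. The level in WT replicate 2 rests on its single fragment. The 4 libraries together gave 11.04 CPM, at least 2.32-fold over IgG (adjusted p = 0.00390), with 0 IgG fragments. Without KO replicate 1 the adjusted p was 0.0587. The start window missed most of the mark, since the 5 annotated transcript starts together held 629 H3K27me3 fragments and the densest 1-kb bin, 104.6-fold over the genome average, lay 3 kb inside the gene. Gata4 was also the somatic gene with the second highest H3K4me3 level at its start, 0.908 CPM, from 3 and 4 fragments in KO and 0 and 0 in WT.

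Clu encodes clusterin, a secreted chaperone and a major Sertoli cell product, and lies on the + strand of chromosome 14 from 65968483 to 65981547. H3K27me3 gave 90 and 7 fragments in KO and 61 and 3 in WT, or 23.6, 9.83, 21.1, and 15.0 CPM. Both WT levels lay between the KO levels. The level of 21.2 CPM over the 4 libraries was at least 4.49-fold over IgG (adjusted p = 0.000586). H3K4me3 gave 1 fragment in KO replicate 2 and 1 in WT replicate 2.

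Amh encodes anti-Müllerian hormone, the Sertoli cell signal that removes the Müllerian ducts in the male fetus, and lies on the + strand of chromosome 10 from 80805243 to 80807648. It was the exception among the Sertoli cell genes, with 2 H3K27me3 fragments in KO replicate 1 and 0 in each other library. H3K4me3 gave 3 and 7 fragments in KO and 1 and 3 in WT, or 2.23, 2.06, 1.27, and 1.38 CPM, the highest H3K4me3 level among the 10 genes at 1.82 CPM (interval 0.993 to 3.05). Even so, 44.8% of protein-coding genes had lower levels, and the comparison with IgG gave an adjusted p of 0.161. The preceding gene Sf3a2, a splicing factor gene, ends inside the Amh window and starts 7045 bp upstream, where it carried 119 H3K4me3 fragments (15.4 CPM) and 4 of H3K27me3.

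Insl3 encodes the Leydig cell hormone that draws the testis down into the scrotum, and lies on the + strand of chromosome 8 from 71689214 to 71690575. H3K27me3 gave 101 and 15 fragments in KO and 71 and 9 in WT, or 26.5, 21.1, 24.6, and 44.9 CPM. The 4 libraries together gave 25.8 CPM, at least 5.47-fold over IgG (adjusted p = 0.000401), while H3K4me3 gave 0, 3, 0, and 1 fragments. Insl3 sits inside the annotated span of Jak3, a cytokine receptor kinase gene on the same strand whose own start, 12918 bp upstream, carried 12.7 CPM of H3K27me3. The mark was therefore not confined to the Insl3 start.

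The 3 steroidogenic genes of Leydig cells carried less. Cyp11a1, whose enzyme cleaves the cholesterol side chain in the first step of steroid synthesis, lies on the + strand of chromosome 9 from 58006411 to 58027023. H3K27me3 gave 16 and 4 fragments in KO and 16 and 2 in WT, or 4.20, 5.62, 5.53, and 9.98 CPM, and H3K4me3 gave 0 in all 4 libraries. The level of 4.99 CPM was at least 1.02-fold over IgG (adjusted p = 0.0309), and this call was lost with the animal as a block (adjusted p = 0.0576). It was also lost without KO replicate 1 (adjusted p = 0.103), without WT replicate 1 (0.0818), without WT replicate 2 (0.0816), and in the 500 bp window (0.0844). Counting every deposited fragment (0.0592), leaving out the filter (0.0599), scaling to fragments near gene starts (0.114), and taking all transcript starts (0.141) ended it too.

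Star, which carries cholesterol into mitochondria, lies on the + strand of chromosome 8 from 25806555 to 25815982, and Cyp17a1, the hydroxylase and lyase of androgen synthesis, on the - strand of chromosome 19 from 46667165 to 46673172. Both had 0 H3K27me3 fragments in all 4 libraries. A count of 0 allows up to 0.394 CPM here, so a level as low as that of the median gene was not detectable. H3K4me3 gave 2 fragments at Star, both in KO replicate 2, and 1 at Cyp17a1 in each KO library.

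Acta2 encodes the smooth muscle actin of peritubular myoid cells, and lies on the - strand of chromosome 19 from 34241090 to 34255590. H3K27me3 gave 65 and 0 fragments in KO and 44 and 1 in WT, or 17.1, 0.0, 15.2, and 4.99 CPM. Both replicate 1 libraries were thus high and both shallower replicate 2 libraries low, in KO and in WT. The level of 14.5 CPM stood 11.4-fold over the single IgG fragment (exact interval 2.01 to 456, adjusted p = 0.00895). Without KO replicate 1 the adjusted p was 0.0539, without WT replicate 1 it was 0.0643, and without WT replicate 2 it was 0.0519. Limma-voom gave 0.933 and scaling to fragments near gene starts 0.0563. H3K4me3 gave 1 fragment, in WT replicate 2.

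In all, 7 of the 10 genes were called higher in H3K27me3 than in IgG at their starts, and the other 3 had too few fragments to test. Over the genome 73.5% of the 6706 genes tested were called higher, which is 22.5% of all protein-coding genes. The 7 genes that passed the filter did so through their H3K27me3 fragments, so their count among tested genes is no support on its own. Without KO replicate 1, the deepest H3K27me3 library, 4 of the genes were called (Sox9, Wt1, Clu, and Insl3), and with scaling to fragments near gene starts 5 were (these 4 and Gata4).

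In H3K4me3 against IgG at starts, Amh was the only somatic cell gene with enough fragments to test, and 0 of the 10 were called by the limma-moderated fit. At an unadjusted p under 0.05 the count was also 0, and limma-voom called 0. Over the genome 74.9% of tested genes were called higher, or 44.0% of all protein-coding genes. In the window of 2 kb, Amh was called (adjusted p = 0.0487).

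H3K4me3 and H3K27me3 were also compared directly. At starts, 7 of the 10 genes were called lower in H3K4me3 than in H3K27me3, with 30.6% of tested genes and 23.2% of all protein-coding genes called in that direction. These 7 genes had 0 to 7 H3K4me3 fragments and passed the filter through H3K27me3, so their count is a description and no support on its own. Fitted log2 ratios of H3K4me3 to H3K27me3 were -8.78 at Wt1 (SE 2.52), -7.16 at Sox9 (SE 1.62), -6.80 at Acta2 (SE 1.88), -6.35 at Clu (SE 1.28), -5.63 at Insl3 (SE 0.94), and -3.60 at Gata4 (SE 0.65). Cyp11a1, with 38 H3K27me3 and 0 H3K4me3 fragments, was at least 9.94-fold higher in H3K27me3. Amh went the other way, with 14 H3K4me3 fragments against 2 (log2 ratio 2.79, SE 1.09, adjusted p = 0.00402), the direction called for 63.3% of tested genes and 48.0% of all protein-coding genes. Amh passed the filter through H3K4me3, so this call too is a description. That call was lost with limma-voom (adjusted p = 0.0866), and without KO replicate 2 Amh had too few fragments to test. Star and Cyp17a1 were not tested.

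In H3K9me3, Wt1 and Sox9 lay above the genome average of 0.734 CPM and the other 8 genes below it, while 11.4% of all protein-coding genes lay above. Of 12 textbook Polycomb targets, 9 lay above it too, with a list median of 0.907 CPM, so this is not particular to Wt1 and Sox9. Wt1 had 0.994 CPM, from 6 and 4 fragments in KO and 8 and 5 in WT, and Sox9 had 0.778 from 18 fragments in all, close to the average. In KO replicate 1, 3963850 of 6746382 H3K9me3 fragments lay on autosomes, against 3773436 of 3806026 for H3K27me3. All 10 genes are autosomal, so their H3K9me3 levels per library lie lower than per autosomal fragment. The median over the 10 genes was 0.194 CPM against 0.130 over all protein-coding genes, whose 90th percentile was 0.821. Wt1 and Sox9 were tested and 0 were called higher than IgG by the limma-moderated fit, with 0 at an unadjusted p under 0.05. Limma-voom called Wt1 lower than IgG (adjusted p = 0.0061). Over the genome 0.0867% of tested genes, or 0.0182% of all protein-coding genes, were called higher in H3K9me3 at their starts.

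**Figure D2:**
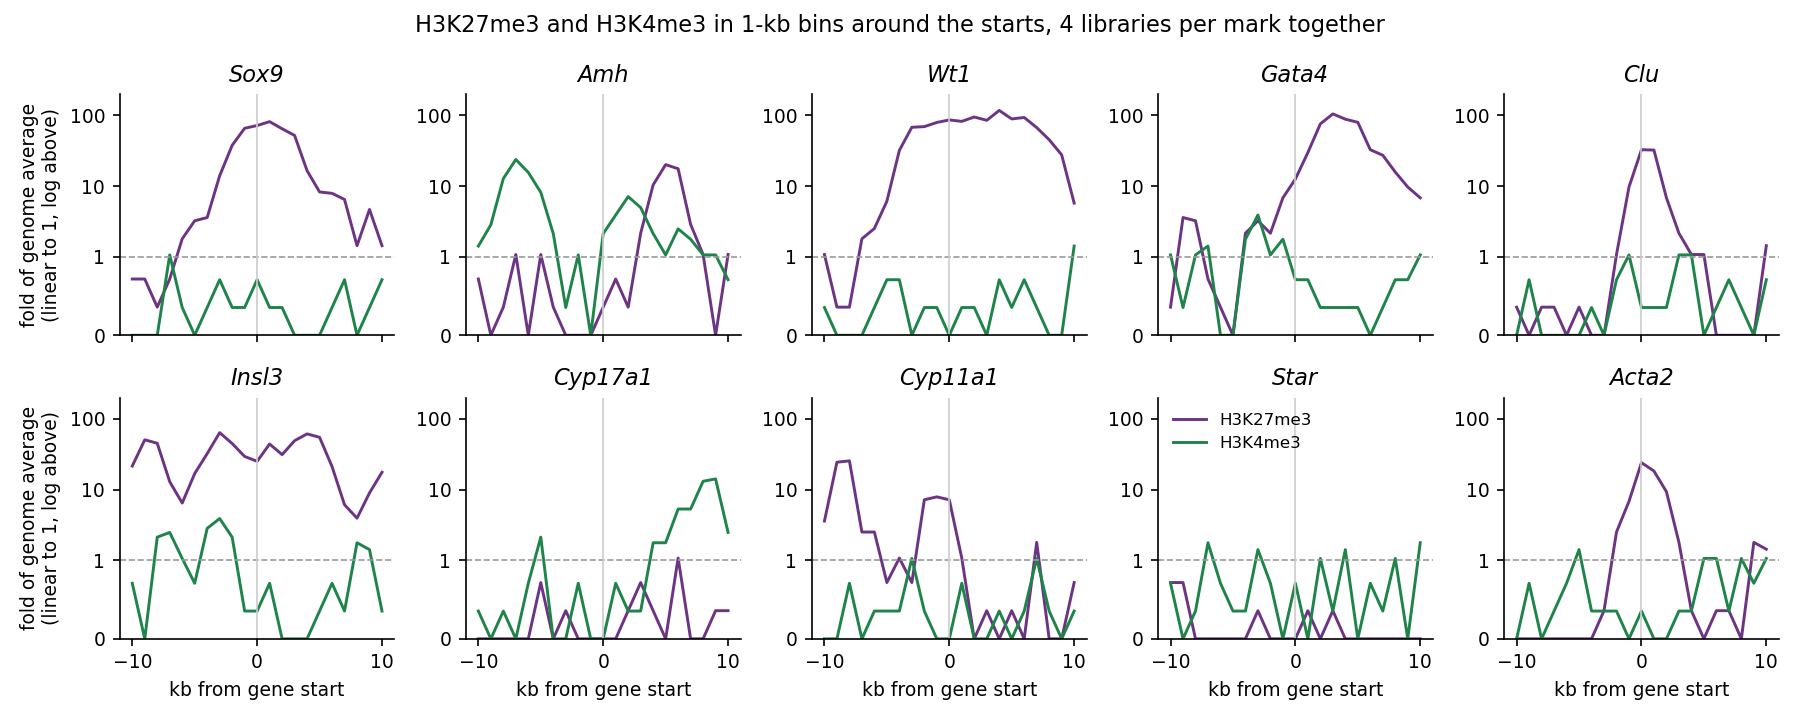
H3K27me3 (purple) and H3K4me3 (green) in 1-kb bins from 10 kb before to 10 kb after the start of each somatic cell gene in its own direction, 4 libraries per mark together, as fold of the genome average (linear to 1, logarithmic above, dashed line at 1). H3K27me3 covers 16 of 21 bins around Wt1 and 20 around Insl3 at 5-fold or more, 4 around Clu and Acta2, and 0 around Star and Cyp17a1.

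The plots along the genes show how far H3K27me3 reached. Bins at 5-fold of the genome average or more numbered 20 of 21 around Insl3, 16 around Wt1, 12 around Gata4, and 11 around Sox9, so these genes lie in broad domains. At Clu and Acta2 the mark was narrow, with 4 bins each and its highest bin at the start itself, 32.6-fold and 24.0-fold. At Wt1 the highest bin, 117-fold, lay 4 kb inside the gene, and at Sox9 the highest, 81.3-fold, lay 1 kb inside.

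Around Cyp11a1 the highest H3K27me3 bin, 25.4-fold from 71 fragments, was centred 8 kb upstream of the GENCODE start. That bin holds the RefSeq start whose promoter is printed above, and the long noncoding RNA Gm17322 starts within 1 kb of its centre. Gm17322 lies on the same strand and runs from there into the start window of Cyp11a1. Around Amh, H3K27me3 reached 20.1-fold 5 kb downstream of its start, beyond the end of the gene, and H3K4me3 reached 23.7-fold 7 kb upstream, where Sf3a2 and Plekhj1 start. Around Cyp17a1, H3K4me3 reached 14.1-fold 9 kb downstream of the start, outside the gene. No bin around Star reached 5-fold in H3K4me3, H3K27me3, or H3K9me3. H3K9me3 reached 5-fold in 0 bins of any of the 10 genes.

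Over whole gene bodies, with levels given in CPM per kb of gene, the same 3 genes lacked H3K27me3. Sox9 had 17.3 and Insl3 14.3 CPM per kb, followed by Gata4 with 8.56, Wt1 with 5.95, Clu with 1.83, Acta2 with 1.37, and Cyp11a1 with 0.459. Amh, Cyp17a1, and Star had 0.164, 0.109, and 0.0279, all below the genome average of 0.367. The large Gata4 locus carried 2596 and 426 fragments in KO and 1557 and 160 in WT, and in CPM it exceeded 99.8% of protein-coding genes.

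H3K27me3 over gene bodies was called higher than IgG for 6 of the 7 genes tested, the exception being Cyp11a1 (adjusted p = 0.128), with 29.0% of tested genes called over the genome. As at starts, these genes passed the filter mostly through their H3K27me3 fragments, so the count is no support on its own. Acta2 (adjusted p = 0.0162) lost its call without replicate 1 of KO (0.0820) or of WT (0.0848), with every deposited fragment counted (0.0793), with scaling to fragments near gene starts (0.0967), and with a variance that grows with the square of the level (0.0677). With the first 1 kb of each gene left out, Insl3 (0.127) and Acta2 (0.0535) were not called. Body H3K4me3 was called higher than IgG for 0 of 8 genes tested by the limma-moderated fit and also by limma-voom, against 44.3% of genes called over the genome. Amh and Wt1 had an unadjusted p under 0.05 in that comparison, and with the animal as a block Amh was called (adjusted p = 0.0434). Wt1 was called lower (24 H3K4me3 against 15 IgG fragments, log2 ratio -2.61, SE 0.58, adjusted p = 0.00152), as were 6.86% of tested genes, and without KO replicate 1 it was not (adjusted p = 0.167). With the block, Gata4 was called lower as well (adjusted p = 0.0163).

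Body H3K9me3 was called higher for 0 of 7 genes by the limma-moderated fit and 0 by limma-voom, with 1 gene, Wt1, at an unadjusted p under 0.05 and in the lower direction, and with 2.07% of tested genes called higher. With the animal as a block Wt1 was called lower (adjusted p = 0.0186). Limma-voom called Clu, Cyp11a1, Star, and Acta2 lower (adjusted p = 0.0322, 0.0470, 0.0048, and 0.0077), as it did 12446 genes over the genome. Clu held 20 H3K9me3 fragments and 0 IgG fragments, so its counts were not lower. Limma-voom adds 0.5 to each count, which shifts log values near 0 in libraries of very unequal size. Its lower calls are therefore no sign of less H3K9me3 than IgG.

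In bodies the direct comparison of H3K4me3 with H3K27me3 called 7 genes lower (background 26.8%) and 3 higher (background 57.7%). Sox9 and Insl3, with 3 and 2 H3K4me3 fragments, passed the filter through H3K27me3 alone, and the 3 genes called higher passed it through H3K4me3, so these counts are no support on their own. The 3 were Amh, Cyp17a1, and Star, at H3K4me3 levels of 1.89, 0.453, and 0.206 CPM per kb. These are 5.14-fold, 1.24-fold, and 0.563-fold of the genome average. With the animal as a block Star lost its call (adjusted p = 0.171), and with limma-voom both Star (0.172) and Cyp17a1 (0.0550) did. Cyp17a1 also lost it with a variance that grows with the square of the level (0.0510).

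Other genes of the same cell types were read from lists of textbook markers. Among 15 other Sertoli cell genes the median H3K27me3 level at starts was 26.7 CPM and 11 were called over IgG, led by Fshr, the receptor for follicle-stimulating hormone, with 47.3 and the steroidogenic factor gene Nr5a1 with 42.8. Among 11 other myoid genes the median was 30.2 and 7 were called, led by the growth factor receptor gene Pdgfra with 56.6. The myoid genes Tagln, Cnn1, Actg2, and Mylk were not called, with 0.394, 1.71, 0.263, and 0.263 CPM. Among 11 other Leydig cell genes the median was 1.58 and 3 were called, the receptor genes Lhcgr and Prlr (40.6 CPM) and Nr2f2 (26.7), a nuclear receptor gene. Over all protein-coding genes 22.5% were called, and 73.5% of those tested. The genes tested numbered 11 in the Sertoli list, 8 in the myoid list, and 7 in the Leydig list, and they passed the filter mostly through H3K27me3. No test compared the lists.

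H3K4me3 was called for 2 of the other Sertoli cell genes (Inha and Inhbb), 2 of the other Leydig cell genes, and 0 of the other myoid genes, out of 3 tested in each list. Over the genome 44.0% of all protein-coding genes and 74.9% of those tested were called. The Leydig cell genes called were Fdx1 and Fdxr, the ferredoxin and its reductase that pass electrons to mitochondrial P450 enzymes, with 19.98 and 17.5 CPM. The myoid gene Mylk, for myosin light chain kinase, had 7.39 and was not called. Median H3K4me3 levels were 0.389 (Sertoli), 0.130 (Leydig), and 0.649 CPM (myoid).

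Cells that a sort could also carry along were read in the same way. Of 11 macrophage and endothelial genes, 0 had enough H3K4me3 fragments to test, their levels ran from 0.0 to 0.908 CPM, and 2 were called for H3K27me3 (Mrc1 with 14.2 and Kdr with 62.6 CPM). Among 13 genes of tissues outside the testis the median was 0.259 CPM for H3K4me3, the same as over the 10 somatic cell genes, and 0.263 for H3K27me3, with 1 called (Gh). Of 12 textbook Polycomb targets, 11 were called for H3K27me3, with a median of 55.7 CPM, which is close to the levels at Sox9 and Wt1. For H3K27me3, 22.5% of all protein-coding genes and 73.5% of those tested were called. The tested genes of these lists passed the filter mostly through H3K27me3. What share of sorted cells were somatic was not tested.

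**Figure D3:**
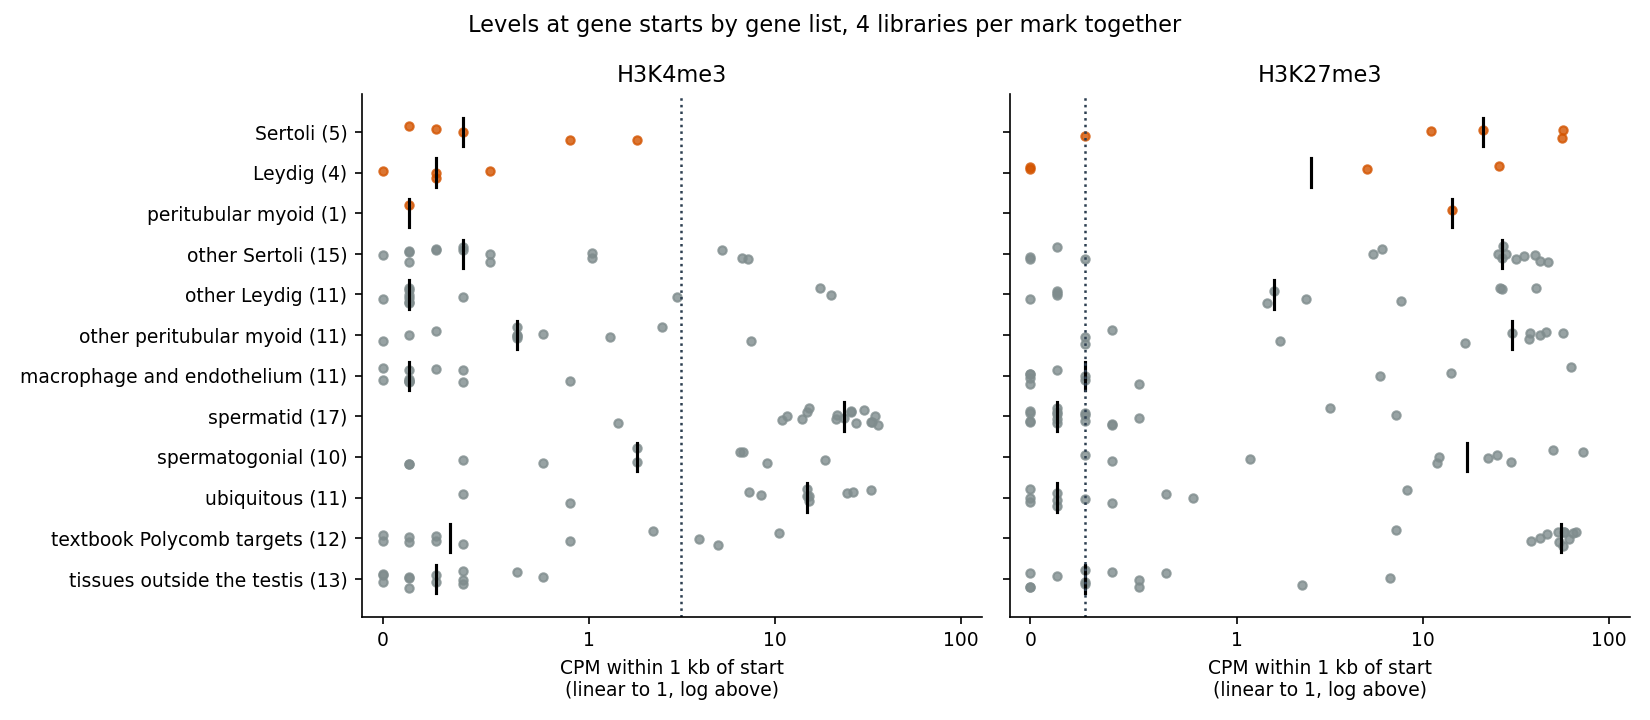
Each point is 1 gene, with H3K4me3 (left) or H3K27me3 (right) CPM within 1 kb of its start, 4 libraries together (linear to 1, logarithmic above), by list, with the number of genes in parentheses. Orange points are the 10 somatic cell genes, black bars the list medians, and dotted lines the median of all protein-coding genes (3.11 and 0.263); most spermatid and ubiquitous genes lie to the right of the dotted line in H3K4me3, as do all 12 Polycomb targets in H3K27me3.

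KO and WT were compared at the same genes to ask whether H2A.B loss changes either mark there. No somatic cell gene was called in any of the 4 targets. At starts, the fit called 0.0% of all genes tested in either direction in H3K4me3, H3K27me3, H3K9me3, and IgG. Unadjusted p-values under 0.05 numbered 516 of 12780 genes in H3K4me3, 85 of 6492 in H3K27me3, 120 of 4286 in H3K9me3, and 2 of 85 in IgG. Each share lies below the 0.05 that exact p-values would give with no difference. The fit was thus cautious, and 0 calls do not show equal levels. Limma-voom called 0 genes in each of the 4 targets.

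In H3K27me3, fitted log2 differences (KO over WT) at the 7 genes tested ran from -0.40 to 0.33 with SEs of 0.42 to 0.61. The smallest unadjusted p-values belonged to Sox9 and Cyp11a1. For Sox9 the mean level was 46.4 ± 29.9 CPM in KO and 58.4 ± 16.1 in WT (SD, n = 2), while the fit, which weighs libraries by depth and so follows replicate 1, gave 0.33 (95% interval -0.53 to 1.19, adjusted p = 0.9997). With same-numbered replicates taken as sibling pairs, this difference was 0.52 in pair 1 and -1.47 in pair 2. Its direction is not settled. For Cyp11a1 the means were 4.91 ± 1.001 and 7.76 ± 3.14, and the fit gave -0.40 (interval -1.58 to 0.79, adjusted p = 0.9997), with -0.40 and -0.83 in the 2 pairs. These intervals do not exclude changes of the size they span.

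Of the 7 genes, 6 were higher in KO in pair 1 and 1, Gata4, in pair 2. The genes share the same libraries, and no share of all genes by direction is given, so these counts are descriptions only. Gata4 and Cyp11a1 had the same direction in both pairs, but with every deposited fragment counted neither did. KO and WT levels overlapped for Sox9, Wt1, Clu, Insl3, Cyp11a1, and Acta2, and did not for Gata4, whose KO levels of 11.04 and 14.0 lay above the WT levels of 10.7 and 4.99 (log2 difference 0.15, SE 0.50). With every deposited fragment counted the Gata4 levels overlapped as well, at 10.9 and 8.99 in KO and 12.4 and 3.58 in WT. No share of all genes without overlap is given, so the separation at Gata4 is a description only.

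**Figure D4:**
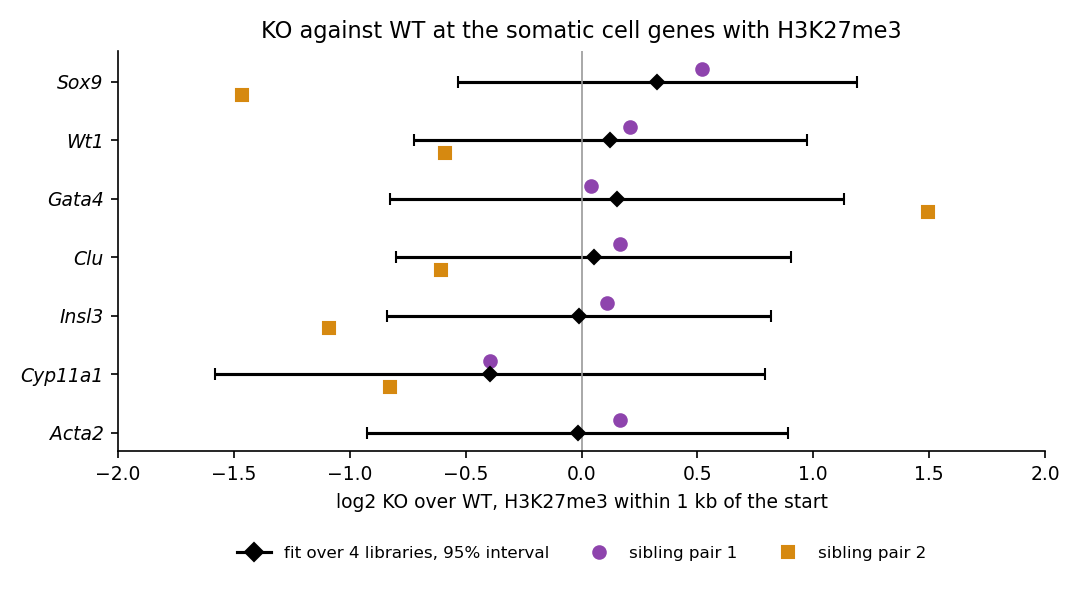
Log2 difference in H3K27me3 (KO over WT) within 1 kb of the start of the 7 somatic cell genes tested. Diamonds give the fit over 4 libraries with its 95% interval, and circles and squares sibling pairs 1 and 2, taken from replicate numbers. Every interval spans 0, and the pairs lie on opposite sides of 0 at Sox9, Wt1, Clu, and Insl3; Acta2 has no point for pair 2 because its KO library held 0 fragments.

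In H3K4me3, Amh was the gene with enough fragments to test, with 2.14 ± 0.12 CPM in KO and 1.33 ± 0.07 in WT. All KO levels lay above all WT levels, yet each rests on 1 to 7 fragments, and the fitted difference of 0.64 had an SE of 0.98 (adjusted p = 0.987). In H3K9me3, Sox9 and Wt1 were tested. Sox9 gave 1 and 3 fragments in KO and 5 and 9 in WT, which do not overlap once scaled (0.148 and 0.572 against 0.813 and 1.80 CPM). Its fitted difference of -1.91 (SE 1.01) had an unadjusted p of 0.0373 and did not pass (adjusted p = 0.971). Wt1 differed by -0.48 (SE 0.75). No share of all genes without overlap is given, so the separations at Amh and Sox9 are descriptions only. At starts no somatic cell gene reached 10 fragments in IgG. Over bodies Wt1 and Gata4 did, with IgG differences of 0.92 (SE 1.12) and -0.87 (SE 0.85), neither of them called.

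Over gene bodies, 0.0% of tested genes were called in either direction in each of the 4 targets by the fit and 0 by limma-voom. Unadjusted p-values under 0.05 numbered 157 of 18143 genes in H3K4me3, 12 of 13540 in H3K27me3, 44 of 17263 in H3K9me3, and 217 of 5181 in IgG. These shares too lie below 0.05, so the fit was cautious here as well. Fitted log2 differences in body H3K27me3 (KO over WT) at the genes with the most fragments were 0.17 at Wt1 (SE 0.26), 0.27 at Gata4 (SE 0.28), and 0.20 at Sox9 (SE 0.29). The direction is not settled at Gata4, where pair 1 gave 0.34 and pair 2 -0.42, nor at Sox9, where they gave 0.32 and -0.70, and the mean level was lower in KO at both genes. The change of the H3K4me3 to H3K27me3 ratio between KO and WT, tested as an interaction at starts, was called for 0.0% of 16648 genes by the fit and 0 by limma-voom (8 higher without KO replicate 2), with 150 at an unadjusted p under 0.05, 1 of them a somatic cell gene, Gata4 (unadjusted p = 0.0472), whose H3K4me3 fragments all came from KO.

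The lengths of the H3K27me3 fragments at the 10 starts were compared as well, with small fragments (at most 120 bp) shorter than the DNA of a whole nucleosome and large ones at least 150 bp. Small fragments made up 12.02% of small and large fragments in KO replicate 1 and 21.2% in KO replicate 2, against 6.13% (95% Wilson interval 4.35 to 8.56) and 4.65% (1.28 to 15.5) in WT. Both KO libraries lay above both WT libraries, with means of 16.6% ± 6.48 and 5.39% ± 1.04 (SD, n = 2). An exact two-sided permutation test gave p = 0.333, the smallest that 2 against 2 libraries allow. Whole libraries moved the same way within each pair, 16.4% against 10.96% in pair 1 and 36.6% against 26.1% in pair 2, so the part of library-wide fragment length in the difference at these genes was not tested.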

How the data were processed

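The authors sequenced paired ends of 25 bp, aligned them to mm10 with Bowtie2 (2.3.4.3 per the submitters' processing notes), and deposited fragment positions and lengths in bp for each library, unscaled and unpooled. Methods state that duplicates were removed with Picard, but identical lines remain, so lines sharing all coordinates entered once. Fragments were counted by midpoint within 1 kb of GENCODE vM21 gene starts and over gene bodies. Quasi-Poisson fits, scaled to distinct fragments, used dispersions moderated by limma 3.58.1 (trend, floor of 1) and were tested on simulated data. The limit on a level with 0 fragments comes from a floor of 3 over the group. A ratio against 0 fragments is given as the lower limit of its exact 95% interval.

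The 10 genes and all lists were chosen with earlier results of these data known. The rule named all 10 genes, and any KO difference called or else the 2 smallest p-values per mark. It also named up to 2 leading genes per list and mark, and neighbours touching a window. Genes listed because they were called, the myoid genes listed as not called, and Plekhj1, Prm1, Gapdh, and Eef1a1, were chosen after their values were seen. Groups came from the labels. Replicate numbers were taken to mark the sibling pairs of the methods, which the labels do not name. Codes in the library titles also differ between the replicate numbers throughout, so pair and code cannot be told apart. Deviations from genotype means correlated between same-numbered KO and WT libraries at 0.244 (H3K4me3), 0.174 (H3K27me3), and 0.216 (H3K9me3). The source of this correlation was not tested. Alternatives were other windows, counting rules, scalings, filters, tests, a replicate block (the animal between targets, the sibling pair between genotypes), and omission of each replicate. Python 3.11.15 was used with SciPy 1.17.1, NumPy 2.4.6, matplotlib 3.10.9, and pandas 2.3.3, beside R 4.3.3. Promoters are RefSeq on GRCm38.p6.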

Additional observations from a re-analysis of the deposited data

How the results depend on the processing

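Between KO and WT, 0 of the 10 genes were called in all 112 recomputations. Many of these outcomes were fixed by the filter. In the main fit at starts, 7 of the genes could be tested in H3K27me3, Amh in H3K4me3, Sox9 and Wt1 in H3K9me3, and none in IgG. Calls of H3K27me3 over IgG at starts fell to between 4 and 7 genes when replicates were left out and to 5 with scaling to fragments near gene starts. Amh was the H3K4me3 call that moved, with 1 gene called over IgG in the 2 kb window, and 0 genes called over H3K27me3 with limma-voom, with the 500 bp window, and at the lowest when replicates were left out (0 to 1). Counting every deposited fragment called genes lower than IgG at starts (2 in H3K4me3, 1 in H3K27me3, 1 in H3K9me3), and over bodies (3, 1, and 2), the Star calls resting on copies of 1 or 2 IgG fragments. At starts, 1 gene was lower in H3K4me3 with no filter and 1 in H3K9me3 with limma-voom. Over bodies, H3K4me3 called 1 gene higher with any overlap of 1 bp, with the replicate block, and with a variance that grows with the square of the level (an alternative chosen after seeing the data), and 2 lower with scaling to fragments near gene starts, with the block, and with that variance, or 0 to 2 when replicates were left out. H3K9me3 called 4 lower with limma-voom (Clu among them despite 0 IgG fragments) and 1 with the block. H3K4me3 over H3K27me3 called 1 higher with limma-voom. For each of these the cause was not tested. The KO difference of Sox9 in H3K27me3 turned from 0.33 to -0.94 without KO replicate 1 and -0.20 without WT replicate 1 (0.48 without KO replicate 2), and that of Cyp11a1 from -0.40 to 0.0597 with every fragment counted and 0.35 with the 500 bp window, none of them called. The shares of small fragments moved by less than their intervals with 1 limit at 120 bp. The replicate block changed no other call among the 10 genes than those given beside the results.

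Over all genes, H3K4me3 over IgG at starts gave 9648 higher calls but 5599 with scaling to fragments near gene starts, and over bodies 8164 but 1535. H3K27me3 over IgG gave 4387 over bodies but 2827 with that scaling. H3K9me3 over IgG gave 4 at starts but 69 with every fragment counted and 0 without KO replicate 1, and over bodies 370 with a range of 51 to 983. Calls lower than IgG at starts rose with every fragment counted from 53 to 613 in H3K4me3, from 154 to 2397 in H3K27me3, and from 170 to 2742 in H3K9me3. Over bodies they numbered 1263 (927 to 2205) in H3K4me3, 3241 (1694 to 5379) in H3K27me3, and 2433 (783 to 12446, the highest with limma-voom) in H3K9me3, so the lower calls among the 10 genes under these settings came with many over the genome. Without KO replicate 1, KO against WT in H3K27me3 called 12 genes higher and 9 lower at starts, and 204 and 155 over bodies, and 10 higher in H3K9me3 bodies. Without KO replicate 2, 1 gene was called higher and 3 lower in H3K4me3 at starts, 2 higher in IgG at starts, and 8 higher for the ratio of H3K4me3 to H3K27me3. In IgG bodies 3 were called higher without WT replicate 1 and 28 lower without WT replicate 2. The block called 1 lower gene in H3K27me3 and 1 in IgG at starts, 2 lower in H3K4me3, 7 lower in H3K27me3, and 1 higher and 3 lower in H3K9me3 over bodies. Depth limits the IgG comparisons: the 4 IgG libraries held 3 fragments at the start of Wt1, 1 at Acta2, 1 at Star, and 0 at the others. WT replicate 2 of H3K27me3 held 200457 fragments, and its start levels at Gata4 and Acta2 rest on 1 fragment each.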
